A study of Mus musculus with 16 samples.

Results

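The renin-angiotensin system genes described here are the 9 genes Agtr1a, Agtr1b, Agtr2, Agt, Ace, Agtrap, Lnpep, Mas1 and Atp6ap2, chosen by gene symbol from a table of 54532 genes, and each symbol matched 1 row. The study measured RNA in the mouse aorta by sequencing. The 16 libraries were made from aortas whose adventitia, the outer connective tissue layer, had been taken off, 8 after infusion of angiotensin II (Ang II) and 8 after infusion of saline. Infusion was by osmotic pump and lasted 7 days, at 1000 ng/kg/min for Ang II and with 0.9% sodium chloride for saline.

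The Ang II group was of male Apoe-/- mice on the C57BL/6j strain, aged 8 to 12 weeks when treated, and the Saline group was of the same sex, genotype, strain and age. By these labels both groups lacked apolipoprotein E, a lack that in mice raises plasma cholesterol, and no group labelled with the intact gene was analysed here. The genotype is as the sample labels give it, although the library names of both groups begin with WT. Apoe RNA was present, with 6.81, 12.1 and 17.2 FPKM as the lowest, median and highest in Ang II libraries and 14.7, 26.1 and 110.1 FPKM in Saline libraries. These values for the whole gene do not show whether part of it is deleted. The labels number the libraries 1 to 8 in each group and do not say that each came from a separate mouse, so the p-values below measure the spread between these libraries. The comparison asks which genes of the system differ in the aortic wall while its effector peptide is supplied from outside.

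In this system the precursor angiotensinogen (Agt) is cut by renin to angiotensin I, and angiotensin-converting enzyme (Ace) turns that into Ang II. Ang II contracts vascular smooth muscle mainly through the AT1 receptor, which rodents encode in a pair of genes, Agtr1a and Agtr1b, while the AT2 receptor (Agtr2) and Mas1, a receptor for angiotensin-(1-7), are known for opposing actions. Agtrap binds the AT1 receptor and promotes its internalisation, Lnpep is the insulin-regulated aminopeptidase that binds angiotensin IV, and Atp6ap2 is the (pro)renin receptor and an accessory subunit of the vacuolar proton pump.

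The AT1 receptor genes are alike over most of their coding sequence, so their sequences are shown first, because they bear on how far reads can be told apart. The coding sequences of Agtr1a (GRCm38 chr13:30336441-30382867, plus strand) and Agtr1b (chr3:20314473-20367177, minus strand) were identical at 978 of 1077 bases (90.8%) in the GENCODE M21 transcripts. The longest stretch without a difference was 66 bases, coding bases 75 to 140, at chr13:30381028-30381093 in Agtr1a and chr3:20316301-20316366 in Agtr1b.
shared stretch of Agtr1a and Agtr1b: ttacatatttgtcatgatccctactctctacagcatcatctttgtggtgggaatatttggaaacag
The 90 coding bases with the most differences, 972 to 1061, held 20, shown in capitals, at chr13:30381925-30382014 in Agtr1a and chr3:20315380-20315469 in Agtr1b.
Agtr1a: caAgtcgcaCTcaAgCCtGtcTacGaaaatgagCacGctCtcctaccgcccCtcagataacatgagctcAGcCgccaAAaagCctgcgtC
Agtr1b: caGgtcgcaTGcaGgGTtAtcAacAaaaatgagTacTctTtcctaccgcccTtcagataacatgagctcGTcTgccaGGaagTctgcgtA
Of the 2150 windows of 50 bases along the longest Agtr1a transcript, 33 (1.53%) were also in the longest Agtr1b transcript, and of the windows of 75 bases 0 of 2125 were. A read of 75 bases or more without errors would thus fit 1 of these 2 transcripts only. The sources used here give neither the read length nor the treatment of reads that fit both genes, so the split between the AT1 genes is reported as uncertain.

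Depth was 15779125 to 19988730 reads in Ang II libraries and 14606864 to 17590088 reads in Saline libraries, as recovered from the FPKM (fragments scaled by transcript length and library depth). Across all genes, 15007 had a mean of at least 0.5 FPKM and were tested with limma on log2(FPKM + 1), where a fold change of a low gene is understated. After Benjamini-Hochberg adjustment at 0.05, 1431 were higher in Ang II libraries (9.54%) and 3741 lower (24.9%), 34.5% in all. The median log2 fold change over all genes was -0.12, and with libraries scaled by median ratios it was -0.01, with 2235 genes higher (14.9%) and 2113 lower (14.1%), 29.0% in all. On the first principal component (46.9% of variance) Saline libraries 2, 7 and 8 stood apart, with scores of 47.5, 67.6 and 108.8, against -37.1 to 3.06 in the Ang II libraries and -6.31 to 9.47 in the other 5 Saline libraries. The tissue label was checked against 8 smooth muscle markers: their FPKM summed to 6315 to 10716 in Ang II libraries and 8981 to 15345 in Saline libraries, and 4 of the 8 were called lower. In such whole-tissue RNA, fewer cells of a type and less RNA per cell cannot be told apart.

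Of the 9 genes, 7 passed the 0.5 FPKM filter and 2, Agt and Agtr2, did not. By limma 1 of the 7, Atp6ap2, was called higher in Ang II libraries and 0 were called lower, where 9.54% and 24.9% of all tested genes were. At an unadjusted limma p under 0.05 Atp6ap2 was likewise the single gene, and limma voom on recovered reads called 0 of the 7 in either direction, where it called 9.66% of all genes higher and 24.3% lower, 33.9% in all. The median log2 fold change of the 7 was 0.12. The enzyme Ace, the receptors Agtr1a, Agtr1b and Mas1, and Lnpep and Agtrap did not pass the threshold, with intervals given below.

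**Figure D1:**
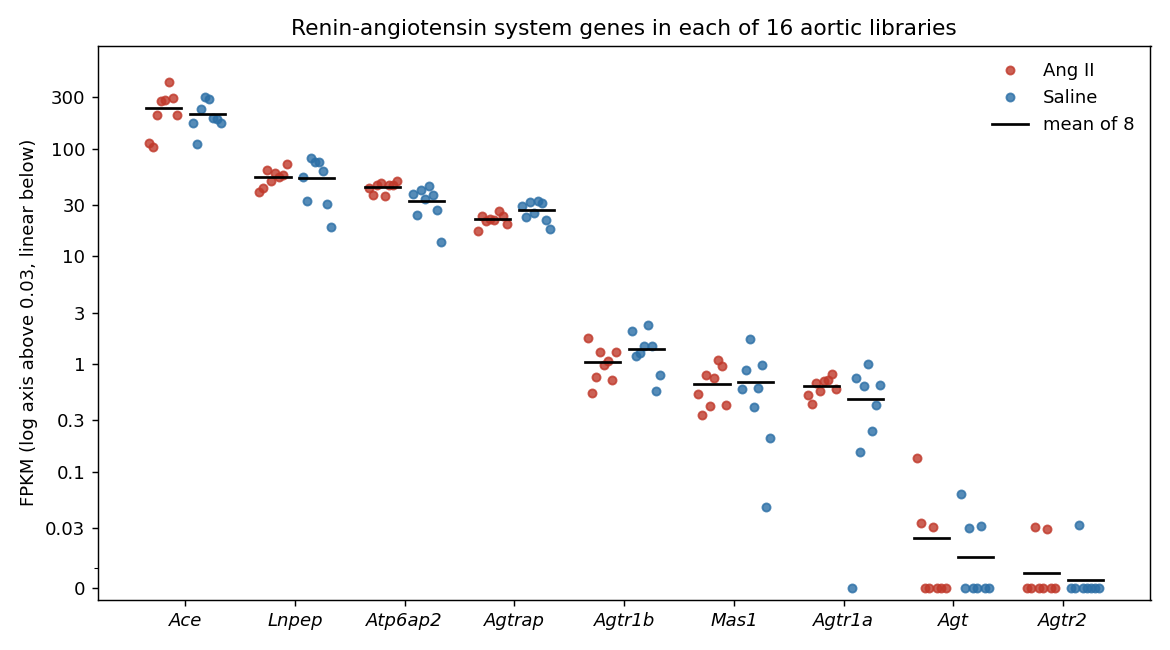
FPKM of the 9 genes in each of the 16 libraries, 8 Ang II and 8 Saline, on an axis that is logarithmic above 0.03 and linear below; each point is 1 library and horizontal lines mark the group means. Ace lay above 100 FPKM in every library, Agtr1a, Agtr1b and Mas1 lay at or below 2.29 FPKM, and most libraries were at 0 for Agt and Agtr2.

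Ace had the most RNA per length of the 9 genes, and the receptors and Agt lay far below it. The FPKM rest on the mean length of a gene's annotated transcripts, which for Agtr1a (745 bases over 6 transcripts) is far from its longest transcript (2199 bases), so levels were also set on the longest transcript. On that scale, Ang II and Saline libraries averaged 142 and 124 FPKM for Ace, 28.6 and 21.1 for Atp6ap2, 17.8 and 17.5 for Lnpep, and 8.82 and 10.7 for Agtrap. The receptors followed with 0.923 and 1.22 for Agtr1b, 0.361 and 0.370 for Mas1, and 0.210 and 0.161 for Agtr1a. In Ang II libraries Ace, Atp6ap2, Lnpep, Agtrap and Agtr1b had ranges apart from each other, while Agtr1b and Mas1 overlapped and so did Mas1 and Agtr1a. In Saline libraries Atp6ap2 and Lnpep, Lnpep and Agtrap, Agtr1b and Mas1, and Mas1 and Agtr1a all overlapped in range. On the deposited scale Lnpep lay above Atp6ap2 in 7 of 8 Ang II libraries and in 8 of 8 Saline libraries, so their order depends on the length used.

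The precursor gene Agt (chr8:124556534-124569706, minus strand) was at the edge of detection in both groups. It had a read in 3 of 8 Ang II libraries and in 3 of 8 Saline libraries, 6 reads in all against 4. The highest Ang II library held 0.134 FPKM and the highest Saline library 0.0624 FPKM. A library at 0 reads allows up to 3 reads, which is 0.0794 to 0.101 FPKM in Ang II libraries and 0.0902 to 0.109 FPKM in Saline libraries, for counting error only. The difference in mean FPKM gave p = 0.662 in a two-sided exact permutation test over the 16 libraries. The smallest p of that test is 0.0001554 for values without ties. It is larger for Agt, because most libraries were tied at 0. Renin itself (Ren1) averaged 0.0490 FPKM in Ang II libraries and 0.122 FPKM in Saline libraries and was below the filter.

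Ace (chr11:105967945-105989964, plus strand), the converting enzyme that endothelial cells carry on their surface, was the most abundant of the genes and did not pass the test. Its lowest, median and highest values were 104, 244 and 418 FPKM in Ang II libraries and 110, 192 and 303 FPKM in Saline libraries. The ranges overlapped almost wholly, with Ang II library 6 above every Saline library and Ang II library 2 below every one. Means were 238 ± 103 FPKM in Ang II libraries and 209 ± 64.4 FPKM in Saline libraries (SD, n = 8 each). The log2 fold change was 0.12 with a standard error of 0.27, a 95% interval of -0.45 to 0.69 and an adjusted p of 0.761 in limma. Its sign turned to -0.23 with a white adipocyte score in the model and to -0.13 with a fibroblast score. Without Saline libraries 2, 7 and 8 it was -0.11, and none of these fits passed the threshold. Of 9 fibroblast markers 0 were called higher and 2 lower, against 9.54% and 24.9% of all tested genes. Those fibroblast markers summed to 71.4 to 195 FPKM in Ang II libraries and 110 to 317 FPKM in Saline libraries. Of 9 endothelial markers 0 were called higher and 3 lower (Pecam1, Cldn5 and Egfl7), against 9.54% and 24.9% of all tested genes, while Cdh5 and Vwf did not pass. The 9 endothelial markers summed to 181 to 1338 FPKM in Ang II libraries and 593 to 1540 FPKM in Saline libraries. Ang II libraries 1, 2 and 6 had the lowest endothelial sums of that group (424, 181 and 578 FPKM), and their Ace values were 112, 104 and 418 FPKM; the part of endothelial RNA in the Ace levels was not tested. Exons of Ace share 5.58% of their bases with another gene model, Gm11651, and a strand setting for the counting is not given in the sources used here.

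The AT1 receptor genes were both low, and Agtr1b gave more reads than Agtr1a in every library. Agtr1b had 277 reads in the Ang II libraries and 350 in the Saline libraries, and Agtr1a had 66 and 46. Per library, Agtr1a had 5, 8.5 and 12 reads as the lowest, median and highest in Ang II libraries, against 0, 6 and 13 in Saline libraries. Agtr1a was read in 8 of 8 Ang II libraries and in 7 of 8 Saline libraries, Saline library 1 being at 0. For Agtr1b the lowest, median and highest were 16, 35 and 52 reads in Ang II libraries and 17, 44.5 and 76 in Saline libraries. Both genes thus had wide overlap between the groups. Agtr1a made up 19.2% of the pooled AT1 reads in Ang II libraries (66 of 343, 95% exact binomial interval 15.2 to 23.8) and 11.6% in Saline libraries (46 of 396, 8.63 to 15.2). The intervals cover counting error only, and per library the share ran from 10.3 to 30.8%, with a median of 21.4%, in Ang II libraries and from 0 to 24.1%, with a median of 14.4%, in Saline libraries. The shares overlapped and no test was made on them.

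**Figure D2:**
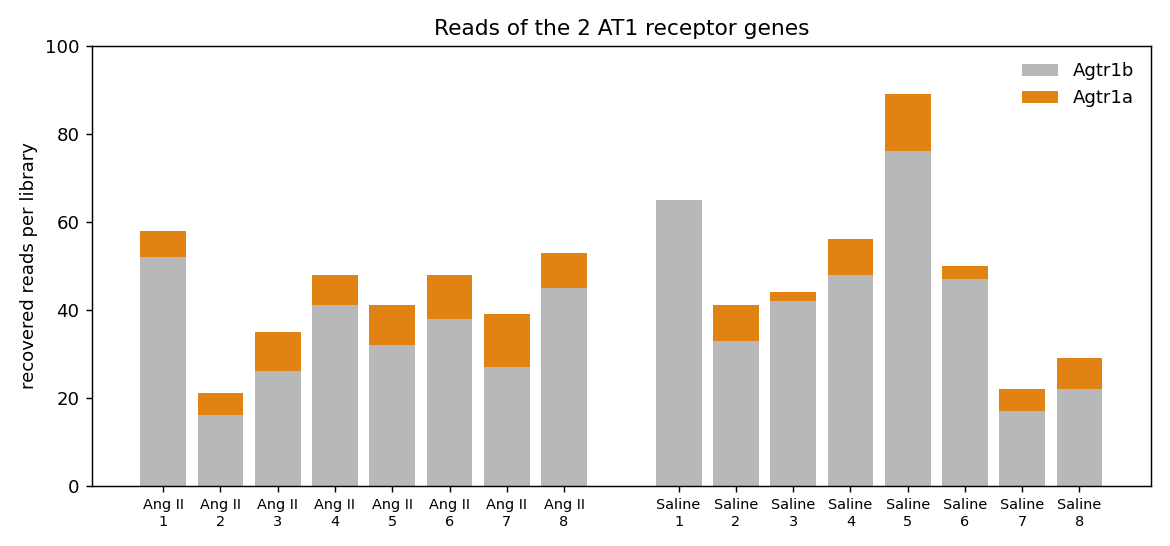
Recovered reads of Agtr1a and Agtr1b in each library, 8 Ang II libraries at the left and 8 Saline libraries at the right; each bar stacks Agtr1a (orange) on Agtr1b (grey). The Agtr1b part is the longer in each of the 16 libraries, and Agtr1a runs from 5 to 12 reads in Ang II libraries and from 0 to 13 reads in Saline libraries.

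By limma neither AT1 gene passed the threshold. Agtr1a averaged 0.620 ± 0.123 FPKM in Ang II libraries and 0.474 ± 0.332 FPKM in Saline libraries (SD, n = 8 each), a log2 fold change of 0.17 (SE 0.14, 95% interval -0.12 to 0.45, limma adjusted p = 0.358). With a pseudocount of 0.1 its log2 fold change was 0.62 (adjusted p = 0.264) and by voom on reads 0.83 (adjusted p = 0.219), so its size depends on the scale while the call did not. Its coefficient of variation was 19.9% in Ang II libraries and 70.0% in Saline libraries, and at these counts a few reads decide a value. Agtr1b averaged 1.05 ± 0.390 FPKM in Ang II libraries and 1.38 ± 0.578 FPKM in Saline libraries (SD, n = 8 each), a log2 fold change of -0.20 (SE 0.16, 95% interval -0.54 to 0.14, limma adjusted p = 0.343). It passed with library weights (-0.36, limma adjusted p = 0.0235) and without Saline libraries 2, 7 and 8 (-0.41, limma adjusted p = 0.0469). Over all genes, 5050 of 15007 were called lower in the first of these fits and 3929 of 14889 in the second.

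The AT2 receptor gene Agtr2 (chrX:21484544-21489164, plus strand) was nearly undetected. Single reads appeared in 2 of 8 Ang II libraries and 1 of 8 Saline libraries, and the remaining libraries were at 0. A count of 0 allows up to 0.0835 to 0.106 FPKM in Ang II libraries and 0.0949 to 0.114 FPKM in Saline libraries. The exact permutation test gave p = 1. With so few libraries above 0 it could not have gone under 0.05 however they were split, so it decides nothing. Mas1 (chr17:12841079-12868143, minus strand) was read in all 16 libraries, with 125 reads in Ang II libraries and 119 in Saline libraries. Its lowest, median and highest values were 0.336, 0.634 and 1.09 FPKM in Ang II libraries and 0.0472, 0.592 and 1.69 FPKM in Saline libraries. The groups overlapped, and the Saline libraries spread more widely. The log2 fold change of Mas1 was 0.03 (SE 0.17, 95% interval -0.34 to 0.39, limma adjusted p = 0.922), and it was -0.02 after quantile normalization.

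Lnpep (chr17:17521410-17625050, minus strand), the aminopeptidase that also sits in the insulin-responsive storage vesicles of fat and muscle cells, did not pass the test. Its lowest, median and highest values were 39.9, 56.1 and 71.6 FPKM in Ang II libraries and 18.8, 58.1 and 82.5 FPKM in Saline libraries. The Saline libraries fell into a low set, with 32.8, 30.5 and 18.8 FPKM in libraries 2, 7 and 8, and the other 5 at 54.1 to 82.5 FPKM. Means were 55.0 ± 10.4 FPKM in Ang II libraries and 53.8 ± 23.9 FPKM in Saline libraries (SD, n = 8 each), a log2 fold change of 0.16 (SE 0.26, 95% interval -0.39 to 0.70, limma adjusted p = 0.660). Without Saline libraries 2, 7 and 8 it was -0.34 (adjusted p = 0.0673).

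Agtrap (chr4:148077061-148088031, minus strand), the AT1 receptor-associated protein, was lower in Ang II libraries on average but did not pass the main test. The lowest, median and highest values were 17.1, 22.1 and 26.1 FPKM in Ang II libraries and 17.9, 27.2 and 32.6 FPKM in Saline libraries. The groups overlapped, with 1 Ang II library below every Saline library. Means were 22.0 ± 2.70 FPKM in Ang II libraries and 26.6 ± 5.35 FPKM in Saline libraries (SD, n = 8 each), and the log2 fold change was -0.25 (SE 0.12, 95% interval -0.51 to 0.01, limma adjusted p = 0.128). The exact permutation test, without adjustment over genes, gave p = 0.0617 on log2 values and p = 0.0476 on FPKM. It was called lower without Saline library 8 (-0.32, adjusted p = 0.0273), without Saline libraries 2, 7 and 8 (-0.44, adjusted p = 0.00318) and with library weights (-0.39, adjusted p = 0.00101). Over all genes, these fits called 3787 of 14946, 3929 of 14889 and 5050 of 15007 lower, in the same order. With median ratio scaling Agtrap was at -0.11 (limma adjusted p = 0.441).

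Agtr1a, the AT1 gene with fewer reads, was set within each library against Agtrap, whose protein binds the AT1 receptor. Agtr1b was not part of this ratio. The log2 ratio of (FPKM + 1) values averaged -3.82 ± 0.166 in Ang II libraries and -4.24 ± 0.510 in Saline libraries (SD, n = 8 each). The difference was 0.42 with p = 0.0531 in a two-sided exact permutation test, which is not past 0.05. By the same exact permutation test the threshold was passed without Saline library 8 (0.52, p = 0.00606), without Saline library 2 (0.48, p = 0.0309) and without Ang II library 2 (0.46, p = 0.0443). With a pseudocount of 0.1 the difference was 0.87 (exact permutation p = 0.0864), and with a pseudocount of 1 recovered read it was 0.92 (exact permutation p = 0.0931), so its size depends on the scale. The ratio joins a log2 fold change of 0.17 for Agtr1a with -0.25 for Agtrap, and neither passed the main test. Agtr1b, with more reads, had -0.20, so the ratio does not stand for the AT1 receptor as a whole.

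Atp6ap2 (chrX:12587801-12617049, plus strand), the (pro)renin receptor and proton pump accessory subunit, was the single gene of the 9 called different, higher in Ang II libraries and close to the threshold. Its lowest, median and highest values were 36.5, 45.6 and 50.4 FPKM in Ang II libraries and 13.5, 35.7 and 45.4 FPKM in Saline libraries. Of the Ang II libraries 5 of 8 lay above every Saline library, and the other 3 overlapped with them. Means were 44.0 ± 4.91 FPKM in Ang II libraries and 32.5 ± 10.4 FPKM in Saline libraries (SD, n = 8 each). The log2 fold change was 0.50 (SE 0.19, 95% interval 0.10 to 0.89), a fold of 1.41, with an adjusted p of 0.0499 in limma. The exact permutation test on log2 values of this single gene, without adjustment over genes, gave p = 0.00979.

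The low end of Atp6ap2 came from the Saline libraries that stood apart. Saline libraries 2, 7 and 8 held 24.2, 26.9 and 13.5 FPKM, against 34.1 to 45.4 FPKM in the other 5. Without Saline libraries 7 and 8 the log2 fold change was 0.28 (limma adjusted p = 0.0894), and without Saline libraries 2, 7 and 8 it was 0.16 (adjusted p = 0.185). Leaving out any 1 library gave log2 fold changes of 0.33 to 0.57 with adjusted p of 0.0248 to 0.0926. The call was kept in 6 of these 16 fits and lost when any 1 of Ang II libraries 1 and 3 to 8 or Saline libraries 2, 4 and 7 was left out. With median ratio scaling the log2 fold change was 0.64 (adjusted p = 0.0115), and over 29 alternatives the adjusted p was under 0.05 in 11.

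White adipocyte markers were high in some of the same Saline libraries. Of the 9 white adipocyte markers 8 were tested, with 2 called lower and 0 higher. Over all tested genes 24.9% were lower and 9.54% higher, so the lower share is near the background. The 9 markers summed to 19.3 to 137 FPKM in Ang II libraries and 26.5 to 322 FPKM in Saline libraries, with none at 0 in all libraries. Saline libraries 2, 6, 7 and 8 held 226, 242, 132 and 322 FPKM of them, and Ang II library 8, with the highest Atp6ap2 value, held 137 FPKM. The 5 brown adipocyte markers, 4 of them tested with 2 called lower, summed to 6.30 to 31.4 FPKM in Ang II libraries and 15.6 to 213 FPKM in Saline libraries, where libraries 2, 6 and 8 were highest. The 5 Schwann cell markers, 2 of them tested and both called lower, summed to 58.8 to 114 FPKM in Ang II libraries, to 230.3, 286 and 491 FPKM in Saline libraries 2, 7 and 8, and to 121 to 158 FPKM in the other 5 Saline libraries. In neither list was a marker at 0 in all libraries. With the white adipocyte score as a covariate the log2 fold change of Atp6ap2 was 0.30 (limma adjusted p = 0.268). That covariate also took the genes called higher over the whole table from 1431 to 937, so a lost call is not particular to Atp6ap2. Of the 8 macrophage and monocyte markers 3 were called higher and 0 lower, against 9.54% and 24.9% of all tested genes. They summed to 59.4 to 672 FPKM in Ang II libraries and 20.2 to 637 FPKM in Saline libraries. The part of white or brown adipocyte, Schwann cell or macrophage RNA in the Atp6ap2 level was not tested.

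**Figure D3:**
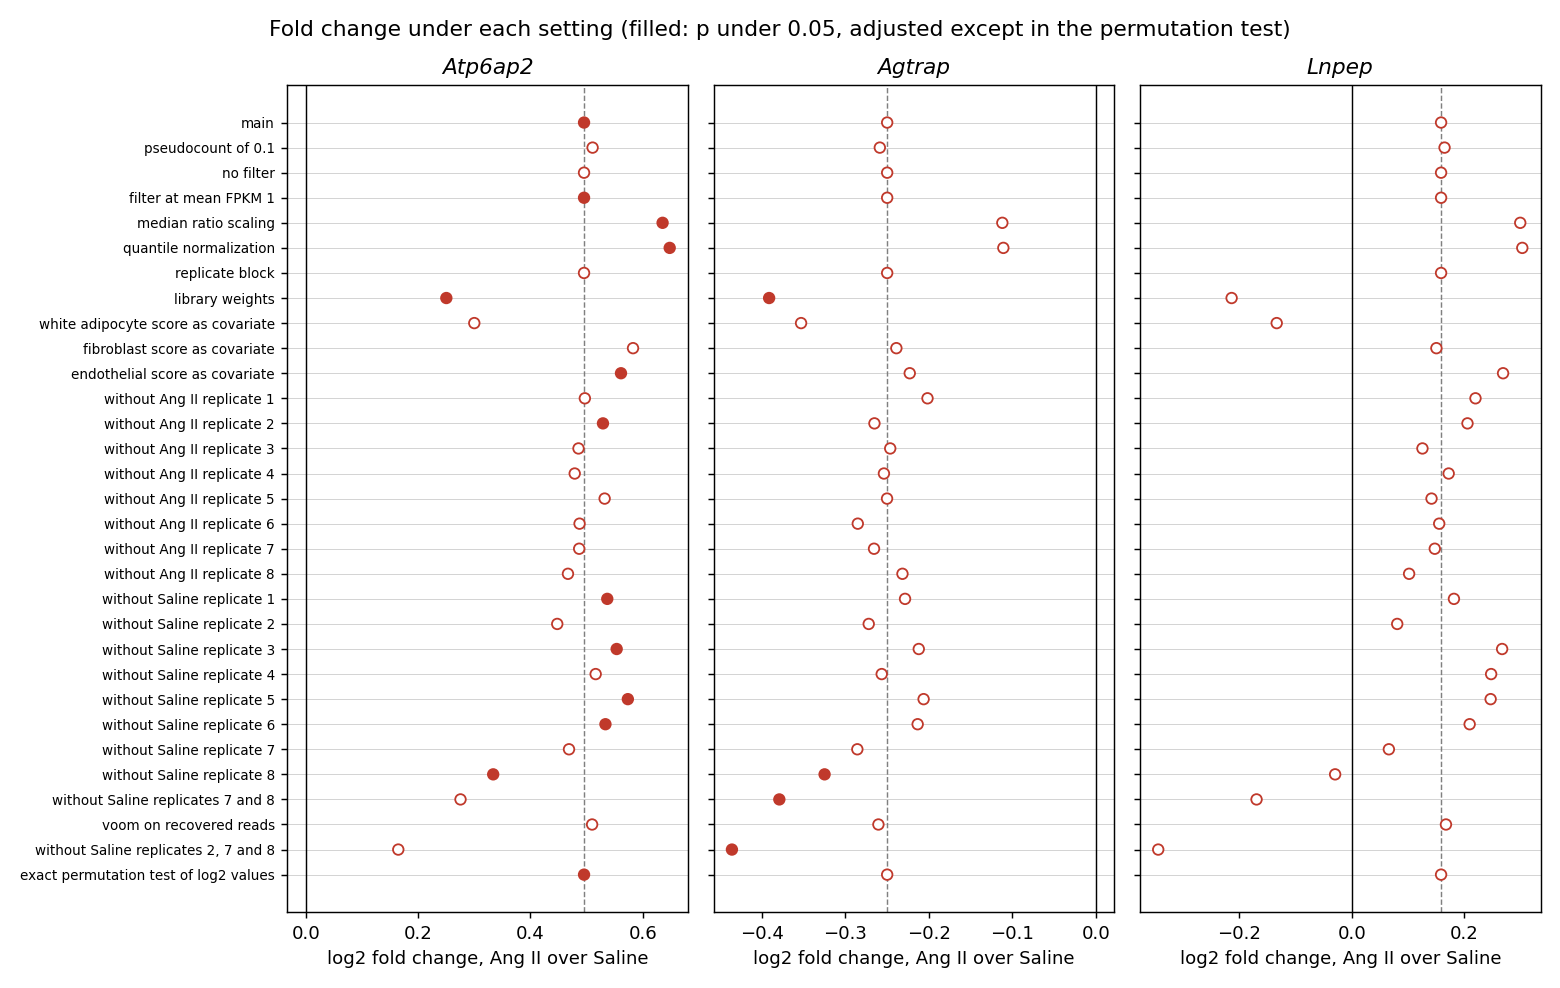
Log2 fold change of Atp6ap2, Agtrap and Lnpep (1 panel each), Ang II over Saline, on the horizontal axis under each setting on the vertical axis; filled points have p under 0.05, adjusted except in the permutation test, and the dashed line is the value reported first. Atp6ap2 stays above 0 throughout, from 0.16 to 0.65, Agtrap stays below 0, from -0.44 to -0.11, and Lnpep lies on both sides of 0, from -0.34 to 0.30.

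The other subunits of the vacuolar proton pump acidify lysosomes and secretory vesicles together with Atp6ap2. Of 16 such subunits tested, 0 were called higher, 4 lower and 12 neither (against 9.54% higher and 24.9% lower over all tested genes), with a median log2 fold change of 0.03. Atp6v0e2, a small membrane-sector subunit, held 2.56 to 5.90 FPKM in Ang II libraries and 6.91 to 14.8 FPKM in Saline libraries, with no overlap (log2 fold change -1.13, SE 0.16, limma adjusted p = 4.45e-05). Atp6v0d1 averaged 63.3 ± 5.02 FPKM in Ang II libraries and 83.4 ± 13.6 FPKM in Saline libraries (log2 fold change -0.38, limma adjusted p = 0.00766), and Atp6v0a1 (-0.46) and Atp6v1f (-0.41) were also lower. Atp6ap1, the other accessory subunit, averaged 206 FPKM in Ang II libraries and 185 FPKM in Saline libraries (0.17, limma adjusted p = 0.301). With median ratio scaling 1 subunit, Atp6v0e2, was called lower and 3 higher, namely Atp6v1h, Atp6v0e and Atp6v0a2. That list and those below were chosen with earlier results of these data known.

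Enzymes that form, trim or degrade angiotensin peptides were listed apart from the 9 genes. Of 18 listed, 17 were in the table and 10 tested, with 2 called higher (Enpep and Nln), 1 lower (Thop1) and a median log2 fold change of 0.10. Over all tested genes 9.54% were higher and 24.9% lower, 34.5% in all. The share of the peptidases called in either direction is near that 34.5%. Enpep, the glutamyl aminopeptidase that trims Ang II to angiotensin III, held 14.9, 19.7 and 35.2 FPKM as the lowest, median and highest in Ang II libraries, against 3.47, 7.61 and 12.8 FPKM in Saline libraries. All 8 Ang II libraries lay above all 8 Saline libraries, and how many of all tested genes separated in this way was not counted. The means were 21.6 ± 6.47 FPKM in Ang II libraries and 7.40 ± 3.64 FPKM in Saline libraries (SD, n = 8 each), a log2 fold change of 1.51 (SE 0.25, limma adjusted p = 0.000231). Enpep stayed past the threshold under all 29 alternatives run on it, and without Saline libraries 2, 7 and 8 its log2 fold change was 1.06.

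Nln and Thop1 are neurolysin and thimet oligopeptidase, metallopeptidases that cut angiotensin I. Nln averaged 6.71 ± 0.792 FPKM in Ang II libraries and 5.41 ± 0.523 FPKM in Saline libraries (log2 fold change 0.26, limma adjusted p = 0.0344), a call lost with any of Ang II libraries 3, 5, 6 and 7 or Saline libraries 1, 6 and 7 left out (adjusted p up to 0.0702). Thop1 averaged 13.6 ± 2.51 FPKM in Ang II libraries and 25.9 ± 13.1 FPKM in Saline libraries (log2 fold change -0.78, limma adjusted p = 0.00822). Without Saline libraries 2, 7 and 8 it was -0.41 (adjusted p = 0.0130). Ren1, Cma1, Mcpt4 and Klk1 were below the filter. Cma2 and Ctsg were listed at 0 in every library.

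**Figure D4:**
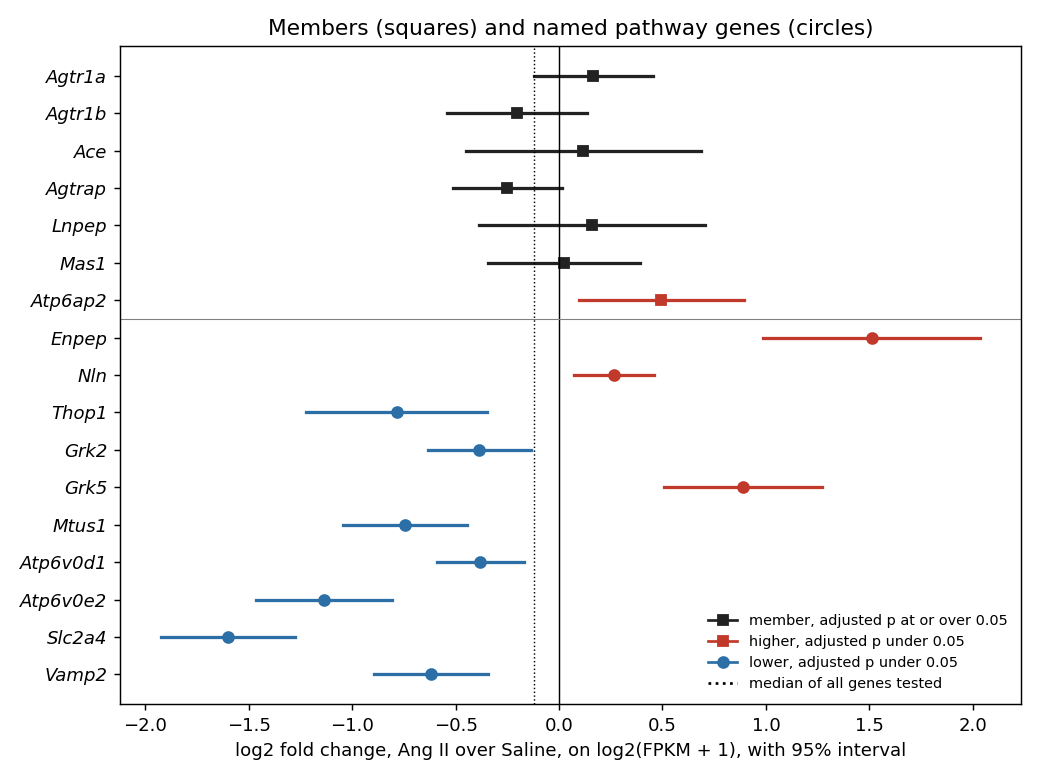
Log2 fold change, Ang II over Saline, with its 95% interval, for the 7 tested genes of the system (squares) and the named genes of the surrounding pathway (circles); the dotted line is the median of all genes tested, -0.12. Among the squares the interval of Atp6ap2 (0.10 to 0.89) is the only one that leaves out 0, and Enpep lies farthest to the right and Slc2a4 farthest to the left of the circles.

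Among genes that couple to the angiotensin receptors or bind them, 22 of 24 listed were tested, with 1 called higher, 3 lower (against 9.54% higher and 24.9% lower over all tested genes) and a median log2 fold change of -0.07. Grk5, a kinase that phosphorylates active G protein-coupled receptors, had a median of 18.4 FPKM in Ang II libraries (12.5 to 27.5) and of 11.5 FPKM in Saline libraries (5.41 to 12.2), with all 8 Ang II libraries above all Saline libraries (log2 fold change 0.89, SE 0.18, limma adjusted p = 0.00141). Grk2, a kinase of the same family, averaged 60.3 ± 4.36 FPKM in Ang II libraries and 80.6 ± 18.9 FPKM in Saline libraries (log2 fold change -0.39, limma adjusted p = 0.0179), and it did not pass with median ratio scaling (-0.24). Mtus1, which encodes a protein that binds the AT2 receptor, averaged 43.8 ± 11.4 FPKM in Ang II libraries and 72.7 ± 10.5 FPKM in Saline libraries (log2 fold change -0.74, limma adjusted p = 0.000819). Arhgef1, an exchange factor for RhoA downstream of AT1, was the third lower gene (log2 fold change -0.75, limma adjusted p = 0.0235), a call lost with median ratio scaling, with quantile normalization and without Saline libraries 2, 7 and 8. Gnaq, the G protein subunit through which AT1 signals to phospholipase C, did not pass the test, with 33.5 FPKM in Ang II libraries and 31.5 FPKM in Saline libraries.

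Of the aminopeptidases related to Lnpep and the proteins of its storage vesicles, 10 of 13 were tested, with 0 called higher, 3 lower (against 9.54% higher and 24.9% lower over all tested genes) and a median log2 fold change of -0.14. Slc2a4, the insulin-responsive glucose transporter GLUT4 that shares vesicles with Lnpep, held 9.23, 12.3 and 22.3 FPKM as the lowest, median and highest in Ang II libraries and 30.9, 40.0 and 49.8 FPKM in Saline libraries. Its groups did not overlap (log2 fold change -1.60, SE 0.15, limma adjusted p = 1.12e-06). Vamp2, a vesicle fusion protein, averaged 135 ± 18.9 FPKM in Ang II libraries and 210.1 ± 50.5 FPKM in Saline libraries (log2 fold change -0.62, limma adjusted p = 0.00176). Rnpepl1, an aminopeptidase-like gene, was also lower (log2 fold change -0.67, limma adjusted p = 0.0105), a call lost with median ratio scaling. Slc2a4 is also expressed in fat, and the white and brown adipocyte values given above stand beside it. The log2 fold change of Slc2a4 was -1.71 to -1.44 over the 29 alternatives, all past the threshold. A white adipocyte score was among them and a brown adipocyte score was not. The part of adipocyte RNA in the Slc2a4 level was not tested.

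Of 13 genes of the kinin and mineralocorticoid arms, 5 were tested, and limma called 0 in either direction, against 34.5% over all tested genes, with a median log2 fold change of -0.22. Nr3c2, the mineralocorticoid receptor, came nearest, with 4.18 FPKM in Ang II libraries and 8.09 FPKM in Saline libraries (log2 fold change -0.65, limma adjusted p = 0.0972). It was called lower without Saline libraries 2, 7 and 8 (-1.20, adjusted p = 0.000143). The steroid-forming genes Cyp11b1 and Cyp11b2 were listed at 0 in every library.

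The genes whose levels were most like each member's were found by Pearson's r of log2(FPKM + 1) after group means were taken off, over the 16 libraries, as a description with no test. They were Ssr3 (0.99), Rhoa (0.99) and Asah1 (0.98) for Atp6ap2, and Il6st (0.99), Pbrm1 (0.99) and Fam129a (0.98) for Lnpep. For Agtrap they were Rab3d (0.96), Hspa2 (0.95) and Fbxo21 (0.93), and for Ace they were Ncstn (0.89), Btbd9 (0.89) and Lrp5 (0.88). The r values were 0.68 to 0.72 for Agtr1a (Tmem26, Scarna2 and Aldh18a1), 0.85 to 0.90 for Agtr1b (Gorab, Erlin1 and Slc16a1) and 0.84 to 0.91 for Mas1 (Gbgt1, Dlx1as and Lrrk1). Within a library, all genes share its depth and its place on the first principal component.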

How the data were processed

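Messenger RNA libraries were made from aortic total RNA for 16 samples, per the labels' protocols. The authors deposited FPKM values for 54532 genes. Per the submitters' processing notes, the genome build is GRCm38 (mm10), and the sources used here name no aligner, counting tool or strand setting. Groups and replicate numbers came from the sample titles, and columns were matched by library name.

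Reads were recovered from FPKM with the mean GENCODE M21 transcript length of each gene. Whole numbers, to within 0.02 of a read, resulted for 95.8% to 96.2% of a library's values above 0, and 31205 of 31423 genes above 0 were recovered, 765 of them with another length. Of the deposited gene IDs 99.9% were in that annotation, and 98.3% had the same coordinates. No 2 libraries of a group agreed within sampling noise (56 pairs, lowest chi-square per degree of freedom 16.9).

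The main test was limma 3.58.1 (trend, R 4.3.3) on log2(FPKM + 1), two-sided, keeping genes that averaged 0.5 FPKM or more, with Benjamini-Hochberg adjustment over all 15007 genes and a threshold of 0.05. The script was tested on simulated data. Genes below the filter, and single values, had exact permutation tests over all 12870 assignments (Python 3.11.15, scipy 1.17.1). Alternatives were pseudocounts, filters, scalings, library weights, marker scores as covariates, left-out libraries, a replicate block and, added after the data were seen, voom on recovered reads and the fit without Saline libraries 2, 7 and 8. The 9 genes and the gene lists were chosen with earlier results of these data known. The text names all 9 genes. From each list it names up to 2 higher and 2 lower genes, taken by smallest adjusted p among those averaging 1 FPKM or more. A choice by smallest p favours genes whose groups do not overlap, and the share of such genes over all tested genes was not counted. Genes named outside that rule, including Arhgef1, Atp6v0a1, Atp6v1f, Atp6ap1, Rnpepl1, Gnaq, Nr3c2 and Ren1, were chosen after their values were seen. The list symbols Ren2, Adrbk1 and Aopep were not matched, and 1 listed gene is not reported here.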

Additional observations from a re-analysis of the deposited data

Results flagged for a closer look

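Over the 38 groups of 8 libraries checked for a single distant value, 4 had one, where chance gives about 1 in 20. Agt was highest in Ang II library 1, at 0.134 FPKM, with the next library at 0.0335 FPKM. Agtr2 was above 0 in a single Saline library, number 3, at 0.0318 FPKM, which is 1 read, and with the other 7 at 0 a single read is enough to set it apart, so the chance rate says nothing of it. Among the pathway genes, Slc2a4 was highest among the Ang II libraries in library 2, at 22.3 FPKM against 13.3 FPKM in the nearest of that group, and still below the lowest Saline library (30.9 FPKM). Grk5 was lowest among the Saline libraries in library 8, at 5.41 FPKM against 8.54 FPKM in the nearest and a median of 11.7 FPKM in the other 7.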

How the results depend on the processing

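Counts below are calls at 0.05. Over all genes, 1431 higher and 3741 lower became 2235 and 2113 with median ratio scaling and 2269 and 2376 with quantile normalization. They became 937 and 2391 with the white adipocyte score, and 1414 and 3531 with a replicate block. With library weights they were 1688 and 5050 of 15007 genes tested. Without Saline libraries 7 and 8 they were 1270 and 3969 of 14957. Without Saline libraries 2, 7 and 8 they were 1208 and 3929 of 14889. Same-numbered libraries correlated at -0.246 to 0.385, over 0.1 for 5 of 8 numbers, and 3 of 8 matched their own number best, so the numbers were not used as pairs. Of the 9 genes, 0 were higher with the replicate block (Atp6ap2 adjusted p = 0.0734), a pseudocount of 0.1, no filter, the adipocyte or fibroblast score, voom, without Saline libraries 7 and 8 and without 2, 7 and 8. Lower calls were 2 with library weights, 1 without Saline 7 and 8 and 2 without Saline 2, 7 and 8. Peptidases called higher numbered 1 with the block, the adipocyte or fibroblast score, and without Saline 7 and 8 or 2, 7 and 8; called lower they numbered 0 with the adipocyte and 2 with the endothelial score. Receptor partners numbered 2 higher with median ratio scaling, quantile normalization and the endothelial score, and 1 lower with both scalings, but 7 lower with library weights and without Saline 2, 7 and 8. Proton pump subunits numbered 3 higher and 1 lower with both scalings, 1 higher with library weights and the endothelial score, and 2 lower with the adipocyte score. The Lnpep list had 1 higher with both scalings, library weights and the endothelial score, and 5 lower with library weights and without Saline 2, 7 and 8. The kinin and mineralocorticoid list had 1 lower with library weights, without Saline 7 and 8 and without Saline 2, 7 and 8. Signs turned, with no call, for Ace with the adipocyte score (-0.23), the fibroblast score (-0.13) and without Saline 2, 7 and 8 (-0.11). They turned for Lnpep with library weights (-0.21), the adipocyte score (-0.13), without Saline 7 and 8 (-0.17) and without Saline 2, 7 and 8 (-0.34). For Mas1 they turned with quantile normalization (-0.0174), library weights (-0.13), the adipocyte score (-0.0098), without Saline 7 and 8 (-0.15) and without Saline 2, 7 and 8 (-0.14). The Agtr1a to Agtrap log2 difference was 0.57 without Saline 7 and 8 and 0.69 without Saline 2, 7 and 8, both with an exact permutation p under 0.05, and the Agt difference without Saline 2, 7 and 8 was -3.1e-05 FPKM.

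Leaving out 1 library at a time gave 1170 to 1533 genes higher and 3239 to 3896 lower. For the 9 genes it gave 0 to 1 higher and 0 to 1 lower, and for peptidases 1 to 2 higher. For receptor partners it gave 3 to 4 lower, for pump subunits 0 to 1 higher and 4 to 5 lower, for the Lnpep list 0 to 1 higher, and for the kinin list 0 to 1 lower. The extra lower gene of the 9, the higher pump subunit and the lower kinin list gene appeared without Saline library 8, and the higher Lnpep list gene without Ang II library 2. Log2 fold changes ran from -0.0172 to 0.27 for Ace (below 0 without Ang II 6 or Saline 2), from -0.0297 to 0.27 for Lnpep (below 0 without Saline 8) and from -0.0629 to 0.13 for Mas1 (below 0 without Ang II 6 or 7 or Saline 4, 7 or 8). The Agtr1a to Agtrap difference ran from 0.32 to 0.52, and the Agt difference from -0.00636 to 0.0160 FPKM (below 0 without Ang II 1). The cause of these shifts was not tested. Depth limits Agt, Agtr2, Agtr1a and Mas1, which had at most 39 reads in a library, so differences among them may go undetected.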
